A study of Mus musculus with 24 samples.

Results

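Rarely included exons were exons whose percent spliced in (PSI, the percentage of a gene's transcripts across that exon that keep it) was at most 5 in each of the 12 wild-type (WT) samples. Of 54141 exon events in the splicing table, 53662 were not classed as microexons, 25945 of these had adequate read coverage in all 24 samples, and 3290 met the limit on PSI. The 3290 exons lay in 2369 host genes. Of these genes, 1697 held 1 such exon and 672 held at least 2, with 6 in each of Cenpp and Metap1. The WT values chose the exons, so a WT PSI near 0 is the rule and not a result, and a difference from WT is given below as a description unless the exons were chosen without the samples compared.

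Poly(A)-selected RNA was sequenced from mouse embryonic stem cells (ESCs) and from the cells they gave during neural differentiation, in 3 samples for each of 8 groups. The WT cells were the parental ESC line, and the slow/slow cells carried the R749H substitution in both alleles of Polr2a, which codes for the largest subunit of RNA polymerase II. The 4 stages were ESCs, neural precursor cells (NPCs) after 7 days, cells purified on beads for the neural surface glycan PSA-NCAM at day 10, and neurons kept for 14 more days after replating. The comparison asks which exons that WT cells nearly always skip were kept when the polymerase carried the substitution, and at which stage. The slow/slow cells came from a gene-targeted line made by successive rounds of homologous recombination, slow/slow and WT cells were plated at different densities for the NPC step, and the clone behind each sample is not given. The study states 3 independent differentiation experiments for its ESC, NPC and neuron RNA and does not name the PSA-NCAM+ cells there. A p-value below thus measures the spread between cultures or differentiations of these lines.

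A cassette exon is either spliced into the mRNA or removed with the introns around it, and introns are spliced while the polymerase is still transcribing. The speed of the polymerase sets how long a weak splice site is exposed before a stronger one downstream competes with it. An exon whose length is not a multiple of 3 shifts the reading frame, and many such exons bring in a premature stop codon that sends the transcript to nonsense-mediated decay (NMD). Genes for splicing factors use these poison exons to limit their own protein. In neurons, very short exons that keep the frame are switched on as a group.

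Exon sequences are shown for the exons on which the results turn and which could be matched, by gene, exon length and the length of both flanking introns, to the GENCODE annotation of GRCm38. The first pair shows short exons that lie wholly in coding sequence, with the exon in capitals and 6 bases of the neighbouring exons of the transcript in lower case. The Impdh1 exon covers chr6:29201888-29201904 and the Cask exon covers chrX:13524825-13524851, both on the minus strand.
Impdh1: acactcCTATACCTTTCTGCCGTttacga
Cask: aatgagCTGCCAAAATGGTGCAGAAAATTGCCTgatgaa
The other 4 exons carry the stop codon of the annotated transcript, and only the coding bases of the exon are printed, with the stop codon in capitals. The Trp53bp1 exon (chr2:121228022-121228162, minus strand) and the P4ha2 exon (chr11:54110482-54110552, plus strand) are annotated in NMD transcripts and in no protein-coding one. The Pdgfa exon (chr5:138978622-138978690, minus strand) and the Capzb exon (chr4:139288861-139288973, plus strand) end the protein in protein-coding transcripts.
Trp53bp1: tcagtgctgggaggTAA
P4ha2: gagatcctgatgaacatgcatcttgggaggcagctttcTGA
Pdgfa: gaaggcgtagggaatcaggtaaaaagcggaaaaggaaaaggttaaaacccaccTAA
Capzb: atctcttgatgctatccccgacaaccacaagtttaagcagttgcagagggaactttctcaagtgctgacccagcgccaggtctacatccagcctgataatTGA
These 6 sequences show 3 kinds of rarely included exon. They are a short exon within coding sequence, an exon with an early stop and an exon that gives the protein another end. Of the first kind, the Cask exon keeps the frame and the Impdh1 exon shifts it.

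The gene count table held from 32974432 to 104466886 counts per sample. Pou5f1, a pluripotency factor, was at 1760 CPM (gene counts scaled to the size of the library) in WT ESCs and 82.8 in WT neurons, while Dcx and Tubb3, markers of young neurons, were at 1118 and 928 CPM in WT neurons. The PSA-NCAM+ samples held little of these neuronal markers, with Dcx at 1.96 CPM in WT and 16.3 ± 13.6 (SD, n = 3) in slow/slow cells, and still held Pou5f1 at 412 and 299 CPM. Replicate 1 of the WT and of the slow/slow PSA-NCAM+ cells stood apart from the other replicates of their groups. Polr2a was counted in every sample, at 717 and 707 CPM in WT and slow/slow ESCs and at 323 and 168 CPM in WT and slow/slow neurons, and gene counts cannot check a single substitution.

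Almost none of the rarely included exons became a common exon in slow/slow cells. A newly included exon was called where the mean PSI of the slow/slow samples exceeded that of WT by more than 10 points with a posterior probability above 0.95, the call used for all exons. The call found 0 of the 3290 exons in ESCs, where it found 0.297% of all exons in the coverage filter, 0 at the NPC stage against 0.636%, and 0 in PSA-NCAM+ cells against 0.2%. In neurons it found 1 exon, in Msi2, against 1.51% of all exons. A second test, limma on the log odds of inclusion at an FDR under 0.05 and the same 10 points, also gave 0, 0, 0 and 1. With a limit of 5 points in place of 10, the counts were 0, 0, 0 and 4 (all exons 0.644%, 1.12%, 0.331% and 2.71%), and the 4 neuronal exons were in Msi2, Impdh1, Pdgfa and Bbs2. Since the WT values had to be low, these shares are not comparable with those of all exons.

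The exon in Msi2, which codes for the RNA-binding protein Musashi-2, was 24 bases long, kept the reading frame, and lay at chr11:88181714-88181737 on the minus strand of mm9 between introns of 17809 and 1364 bases. Its PSI was 0 in all 6 ESC samples. In NPCs it was 0.46, 0 and 0 in WT and 0.24, 0 and 0 in slow/slow cells. In the PSA-NCAM+ samples it was 0.93, 0 and 0 in WT and 0.96, 0.99 and 0.77 in slow/slow cells. The exon was thus close to absent before the neuronal stage in both genotypes. In neurons its PSI was 2.68, 4.21 and 3.93 in WT and 23.16, 18.98 and 17.07 in slow/slow samples, or 3.61 ± 0.815 against 19.7 ± 3.11 (SD, n = 3). Every slow/slow neuron sample lay more than 10 points above every WT neuron sample, with 415 to 681 reads behind each WT value and 192 to 480 behind each slow/slow value. Bulk RNA cannot tell a higher share in every neuron from a different mixture of cells.

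The other 3 rarely included exons of Msi2 stayed low in the same neurons. An exon of 83 bases was at 0 in all 12 WT samples and at 1.1, 0.81 and 1.64 in the slow/slow neurons, the highest pooled slow/slow PSI of any exon without an inclusion read in WT. An exon of 50 bases was at 1.53, 1.12 and 1.31 in WT and 0.93, 1.29 and 2.63 in slow/slow neurons, so the groups overlapped. The last, of 72 bases, was at 0.74, 0.68 and 0.68 in WT and 0, 0.1 and 0.22 in slow/slow neurons. In neurons the Msi2 gene had 5.59 CPM (WT) and 5.68 CPM (slow/slow), with an edgeR adjusted p of 0.942, from 341 to 595 counts per WT sample beside 415 to 681 splice junction reads at this 1 exon, so the gene count held only part of the reads of Msi2.

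**Figure D1:**
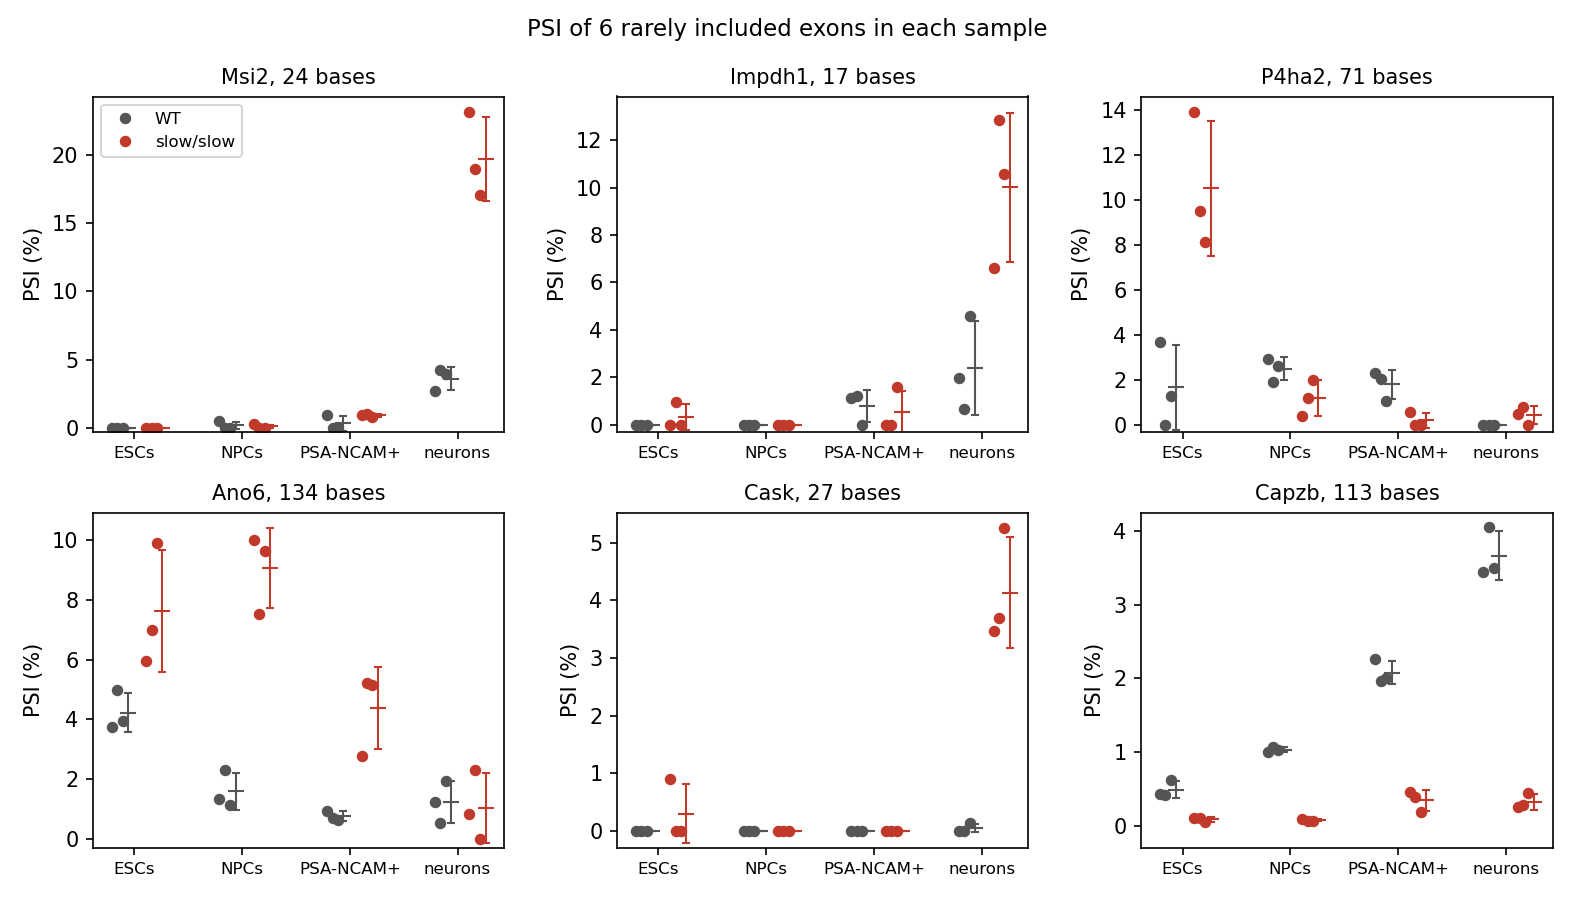
PSI (percent) of 6 rarely included exons at the 4 stages, with 1 point per sample, WT and slow/slow side by side and bars at the mean ± SD (n = 3). The Msi2 exon reached 23.16 in slow/slow neurons and at most 4.21 in WT neurons, the P4ha2 exon was highest in slow/slow ESCs, and the Capzb exon was lower in slow/slow cells at every stage.

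The other exons with the largest differences were chosen after their values were seen, and none passed the 10-point call. The Impdh1 exon, in the gene of an enzyme of guanine nucleotide synthesis, was 17 bases long and shifted the frame. Its PSI in neurons was 1.97, 0.67 and 4.57 in WT and 6.6, 12.84 and 10.59 in slow/slow cells, a mean difference of 7.61 points with no overlap. At the 3 earlier stages no sample of either genotype exceeded 1.57. In neurons the host gene had 67.0 CPM (WT) and 64.2 CPM (slow/slow), with an edgeR adjusted p of 0.53.

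Pdgfa codes for the A chain of platelet-derived growth factor, and its 69-base exon is the one that gives the long form of the chain its basic retention stretch. The exon was at 0.83, 0.62 and 0.8 in WT neurons and at 4.8, 9.02 and 6.15 in slow/slow neurons, a difference of 5.91 points. In PSA-NCAM+ cells the order was opposite, with 3.06, 1.54 and 2.28 in WT and 1.36, 0.52 and 1.05 in slow/slow cells. Pdgfa mRNA itself fell from 26.0 CPM in WT neurons to 11.9 CPM with the slow polymerase (log2 fold change -1.13). The exon was therefore a larger share of a smaller number of transcripts.

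The Cask exon added 27 coding bases to the mRNA of a scaffold protein of the synapse. It was at 0, 0 and 0.13 in WT neurons and at 3.47, 3.69 and 5.25 in slow/slow neurons, and of the 18 samples of earlier stages only slow/slow ESC replicate 1 held any, at 0.89. Cask mRNA fell from 203 CPM in WT neurons to 121 CPM with the slow polymerase (log2 fold change -0.74). Bbs2, a subunit of the ciliary BBSome, held a 99-base exon at 2, 0.63 and 3.27 in WT neurons and 6.11, 8.12 and 7.94 in slow/slow neurons. The 580-base exon of Slc25a30, a mitochondrial carrier, was at 0.88, 3.03 and 1.96 in WT neurons and 7.83, 6.62 and 10.09 in slow/slow neurons, a difference of 6.22 points whose posterior probability of 0.935 missed the call.

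At the earlier stages the largest differences were in genes of other functions. In ESCs a 71-base exon of P4ha2, a collagen prolyl hydroxylase subunit, was at 3.7, 0 and 1.3 in WT and 13.89, 9.52 and 8.11 in slow/slow cells. The groups did not overlap, but each value rested on 22 to 46 reads and the posterior probability of 0.898 did not reach 0.95. In NPCs a 134-base exon of Ano6, a lipid scramblase, was at 1.34, 2.31 and 1.13 in WT and 10.01, 7.53 and 9.62 in slow/slow cells. The 71-base exon of Cept1, an enzyme of phospholipid synthesis, was at 1.08, 3.94 and 1.63 in WT NPCs and 7.75, 5.88 and 8.06 in slow/slow NPCs. In PSA-NCAM+ cells a 245-base exon of Galns, a lysosomal sulfatase, was at 0.38, 1.3 and 1.31 in WT and 6.56, 3.9 and 5.48 in slow/slow cells. For each of these 4 exons the genotypes did not overlap at the stage named.

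The rarely included exons stayed rare as a whole. The highest PSI in any of the 12 slow/slow samples was at most 5 for 3143 exons (95.5%), above 5 for 147, above 10 for 9 and above 15 for 2. Its median over the exons was 1.42, against a median of 1.69 for the highest WT value. The same limit applied to the 12 slow/slow samples gave 3591 exons, and the 3143 shared exons were 87.5% of that set. In 106 exons no sample held an inclusion read, 39 had such reads in slow/slow cells only, and 79 in WT cells only. Pooled over the 3 samples of a slow/slow group, the exact 95% upper bound of the PSI was below 10 for 3278 exons at the ESC stage, 3286 at the NPC stage, all 3290 in PSA-NCAM+ cells and 3284 in neurons, so the depth allowed a rise of 10 points to be seen at nearly every exon. These bounds cover counting error only.

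The limit of 5 fell within a continuous range of values. Just inside it, the exons of Zkscan17 (149 bases) and Ccdc34 (130 bases) reached a WT PSI of 5, and their highest slow/slow values were 2.46 and 7.63. Just outside it, the exons of Sgms1 and Ttc37 reached a WT PSI of 5.01 and 5.02, and their highest slow/slow values were 5.49 and 3.6.

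**Figure D2:**
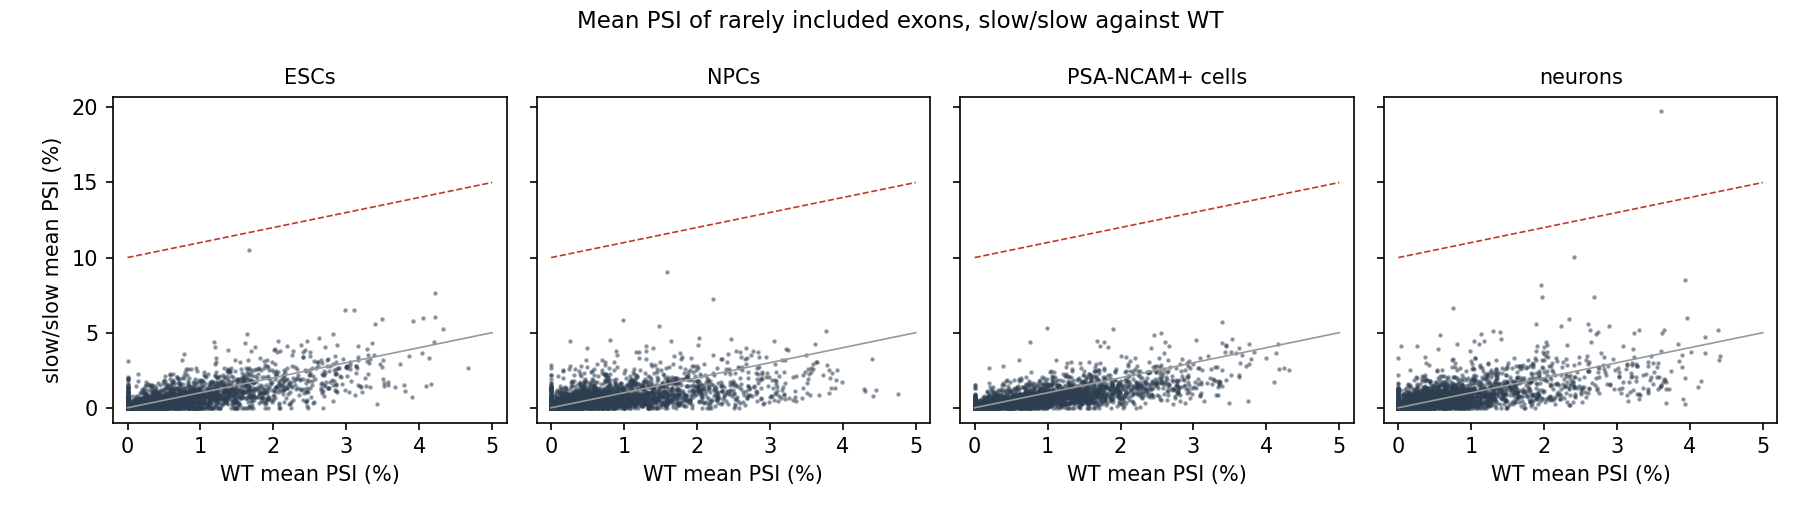
Mean PSI (percent, n = 3 samples) of each of the 3290 exons in slow/slow cells against WT cells at each stage, with 1 point per exon, a solid line at equality and a dashed line 10 points above it. Only the Msi2 exon in neurons lies clear of the dashed line.

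The mean PSI over the 3290 exons was below 1 in every group. For ESCs it was 0.687 ± 0.019 (WT) and 0.616 ± 0.021 (slow/slow), for NPCs 0.729 ± 0.014 and 0.619 ± 0.016, and for neurons 0.656 ± 0.003 and 0.683 ± 0.016 (SD, n = 3). In PSA-NCAM+ cells it was 1.07, 0.744 and 0.706 in WT and 0.695, 0.598 and 0.602 in slow/slow samples, with the highest value of each genotype in replicate 1. The slow/slow samples thus lay below WT at the first 3 stages and above WT in neurons, with no overlap at any stage. For the 3591 exons that were rare in slow/slow cells, the WT means of the 4 stages were 0.826, 0.977, 1.06 and 0.879 and the slow/slow means 0.642, 0.656, 0.687 and 0.712, so in neurons each set of exons was lower in the genotype that had chosen it.

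**Figure D3:**
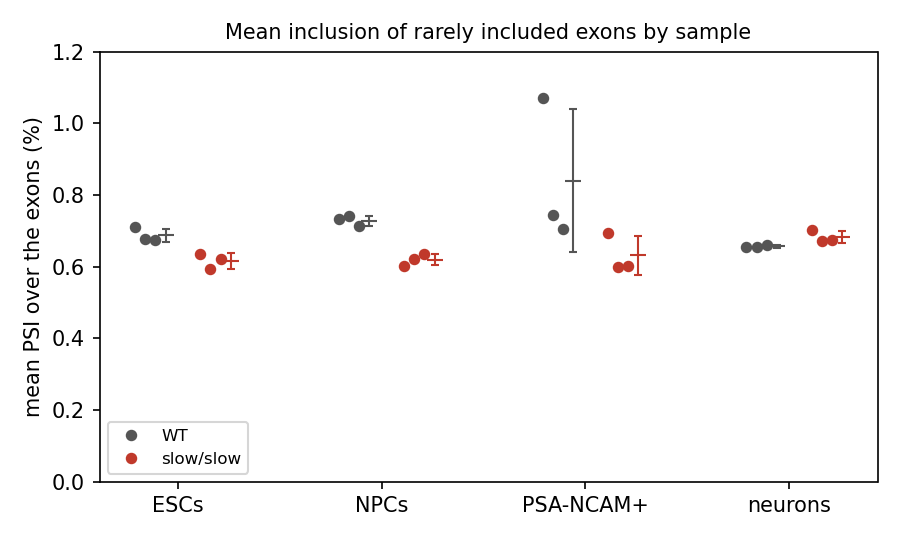
Mean PSI (percent) over the 3290 rarely included exons in each of the 24 samples, by stage and genotype, with 1 point per sample and bars at the mean ± SD (n = 3). Slow/slow samples lie below WT at the first 3 stages and above WT in neurons, and replicate 1 of the WT PSA-NCAM+ cells stands at 1.07.

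Small differences were more frequent than large ones, and at the first 3 stages more of them were downwards than upwards. All 3 slow/slow samples lay above all 3 WT samples for 94 exons (2.86%) in ESCs, where this held for 5.62% of all exons, 208 (6.32%) at the NPC stage against 5.3%, 60 (1.82%) in PSA-NCAM+ cells against 2.99%, and 240 (7.29%) for neurons against 12.2%. All 3 lay below WT for 236 exons (7.17%) in ESCs against 5.23%, 413 (12.6%) at the NPC stage against 12.4%, 332 (10.1%) in PSA-NCAM+ cells against 6.95%, and 266 (8.09%) in neurons against 6.07%. With limma at an FDR under 0.05 and no limit on size, 1 exon was higher and 3 lower in ESCs (all exons 0.312% and 0.308%), 29 and 60 at the NPC stage (1.31% and 4.34%), 3 and 100 in PSA-NCAM+ cells (1.64% and 2.71%), and 56 and 43 in neurons (3.77% and 2.52%). Without replicate 1 of both genotypes, the PSA-NCAM+ counts were 4 and 46. With all samples and the replicate number as a block, they were 3 and 70. The WT values that chose the exons took part in all these counts. The counts are therefore descriptions and are not comparable with the shares of all exons. Stage markers moved with genotype too. At the NPC stage the summed level of 6 ESC markers was 2124 to 2211 CPM over the WT samples and 1318 to 1448 CPM over the slow/slow samples, and that of the NPC markers Pax6 and Nes 36.9 to 38.3 and 119.99 to 157 CPM. In PSA-NCAM+ cells the ESC markers were at 1417 to 1938 and 870.5 to 939.8 CPM and the NPC markers at 66.8 to 99.02 and 251 to 320.2 CPM. In ESCs the ESC markers were at 5653 to 6121 and 5336 to 5731 CPM and the NPC markers at 18.2 to 19.5 and 30.4 to 33.1 CPM. A list of 5 markers of PSA-NCAM+ cells was at 54.5 to 65.1 CPM in WT and 132 to 162 CPM in slow/slow ESCs. It was at 29.8 to 30.1 and 109 to 135 CPM in NPCs, and at 47.1 to 54.3 and 82.8 to 298 CPM in PSA-NCAM+ cells. The summed level in the WT PSA-NCAM+ samples was thus not above that in WT ESCs. No marker of these lists was at 0, and their part in the exon differences was not tested.

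**Figure D4:**
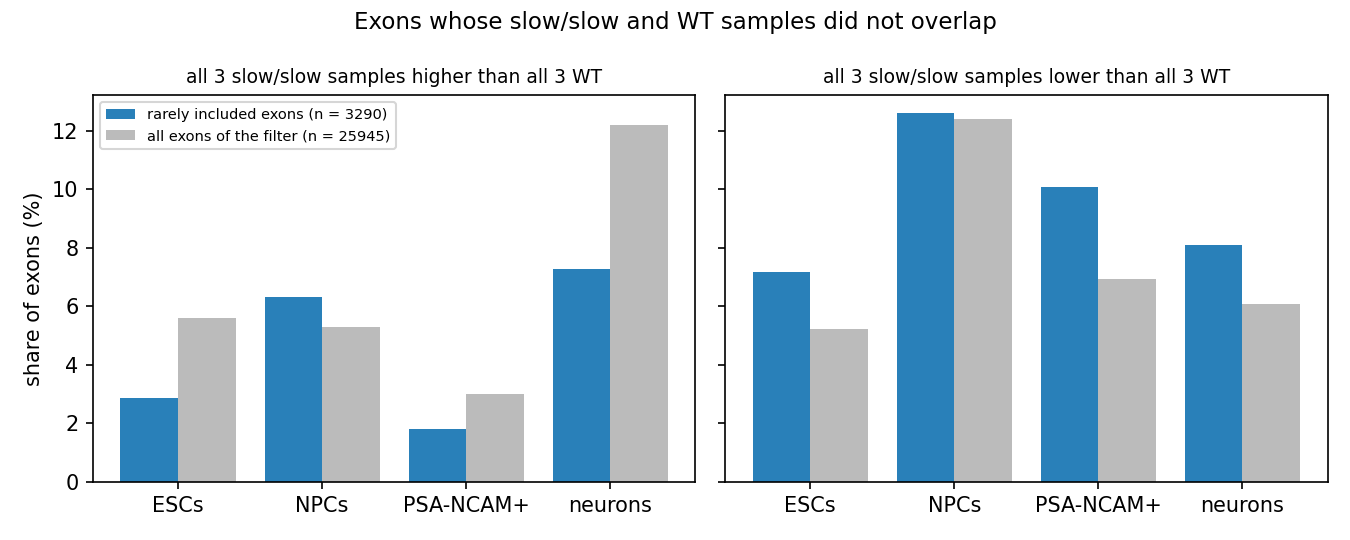
Share of exons (percent) whose 3 slow/slow samples all lay above or all lay below the 3 WT samples at each stage, for the 3290 rarely included exons and for all 25945 exons of the coverage filter. In neurons 7.29% of the rarely included exons were higher and 8.09% lower, against 12.2% and 6.07% of all exons.

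Few exons differed in the same direction throughout. No exon was higher without overlap at all 4 stages, 8 were higher at 3, 46 at 2 and 486 at 1, while 4 were lower at all 4, 21 at 3, 202 at 2 and 764 at 1. Of all exons, 0.177%, 0.678%, 3.13% and 17.1% were higher at 4, 3, 2 and 1 stages and 0.324%, 1.22%, 4.502% and 16.7% lower. The 8 exons higher at 3 stages were 0.243% of the rarely included exons, and the 4 lower at every stage 0.122%. The 8 exons higher at 3 stages were in Slc25a30, Ano6, Clcc1, Ubp1, Maf1, Mau2, Nisch and Son. Among them, the 46-base exon of Maf1, a repressor of RNA polymerase III, was at 0.97, 1.31 and 1.33 in WT NPCs and 3.23, 4.18 and 3.8 in slow/slow NPCs. In neurons it was at 0.95, 1.29 and 1.77 in WT and 3.16, 3.37 and 2.98 in slow/slow cells. The 96-base exon of Mau2, a cohesin loader, was at 3.42, 3.18 and 2.35 in WT ESCs and 7.95, 4.58 and 6.98 in slow/slow ESCs. Ano6 was higher at the first 3 stages but was at 1.24, 0.53 and 1.95 in WT and 0.84, 2.31 and 0 in slow/slow neurons.

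The 4 exons lower at every stage were in Capzb, Rbfox2, Ccny and Golph3. Capzb codes for the beta subunit of the actin capping protein, and its exon gives the protein another C-terminus. In WT cells this exon was at 0.43, 0.42 and 0.62 in ESCs, then at 1, 1.07 and 1.03, then at 2.26, 1.97 and 2.01, and at 3.45, 4.05 and 3.5 in neurons. In slow/slow cells it was at 0.1, 0.11 and 0.05, then 0.09, 0.07 and 0.07, then 0.46, 0.39 and 0.19, and at 0.25, 0.28 and 0.44 in neurons. The WT values were higher at each later stage while every slow/slow value stayed below 0.5. The 63-base exon of Rbfox2, a splicing regulator of neurons and muscle, was at 2.93, 2.51 and 2.07 in WT neurons and 1, 1.34 and 0.83 in slow/slow neurons.

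A comparison among slow/slow samples used no value that chose the exons. The WT limit had still removed exons that rise with stage in WT cells, such as the 315 that passed 5 only in WT neurons. The shares below are therefore not comparable with those of all exons. Between slow/slow ESCs and NPCs, and between slow/slow NPCs and PSA-NCAM+ cells, 0 exons passed the 10-point call in either direction, where 0.374% and 0.0964% of all exons were higher and 0.304% and 0.578% lower. limma without a limit on size called 1 higher and 2 lower (all exons 0.146% and 0.17%) and 0 higher and 3 lower (0.0308% and 0.463%). Between slow/slow NPCs and neurons, 2 exons rose past 10 points and 0 fell, against 2.21% and 1.46% of all exons. The Msi2 exon rose from a mean of 0.08 to 19.7 (limma adjusted p = 3.04e-05, higher in all 3 samples). The Impdh1 exon rose from 0 to 10.0 (limma adjusted p = 0.0154, higher in all 3 samples). With slow/slow neuron replicate 2 or replicate 3 left out, 1 exon passed the call in place of 2. At 5 points, 1 exon rose and 2 fell from ESCs to NPCs (all exons 0.686% and 0.624%), 0 and 0 from NPCs to PSA-NCAM+ cells (0.197% and 1.66%), and 5 and 2 from NPCs to neurons (3.04% and 2.29%). The 5 were in Msi2, Impdh1, Pdgfa, Gm2382 and 4933424B01Rik.

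With limma and no limit on size, 61 exons (1.85%) rose and 29 (0.881%) fell between slow/slow NPCs and neurons, against 3.75% and 2.66% of all exons. The Pdgfa exon rose by 5.19 points (adjusted p = 0.0282). The 203-base exon of Srrm2, a large scaffold of nuclear speckles, was at 0.86, 1.12 and 0.8 in slow/slow NPCs and 6.83, 4.5 and 5.02 in slow/slow neurons, a rise of 4.52 points (adjusted p = 0.00265). In WT it was at 1.06, 1.34 and 1.54 in NPCs and 2.59, 2.27 and 1.84 in neurons. The Cask exon, at 0 in all 3 slow/slow NPC samples, rose by 4.14 points (adjusted p = 0.0305). A 104-base exon of Wdr35, a component of ciliary transport, was at 1.12, 0 and 0 in slow/slow NPCs and 4.59, 4.46 and 4.35 in slow/slow neurons (adjusted p = 0.00691). The 86-base exon of Necap2, an endocytic adaptor, was at 2.03, 3.78 and 1.82 in slow/slow NPCs and 5.78, 7.3 and 9.09 in slow/slow neurons (adjusted p = 0.00778).

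Other exons fell. The Cept1 exon was at 0, 0.43 and 1.03 in slow/slow ESCs and rose by 6.74 points to NPCs (limma adjusted p = 0.0255), then fell by 4.82 points to PSA-NCAM+ cells (adjusted p = 0.0367). The Ano6 exon fell by 8.0 points from slow/slow NPCs to neurons (adjusted p = 0.0099). The P4ha2 exon was at 0.38, 1.19 and 1.98 in slow/slow NPCs and fell by 9.32 points from ESCs (adjusted p = 0.028). Its fall missed the threshold with the replicate number as a block (adjusted p = 0.0732).

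The difference between genotypes was also tested at exons chosen without the WT samples of the stage tested. For each stage, exons were taken whose PSI was at most 5 in the 9 WT samples of the other stages, which gave 3385, 3409, 3492 and 3605 exons in the order of the stages. In ESCs and in PSA-NCAM+ cells 0 of these exons passed the 10-point call in either direction. Of all exons, 0.297% were higher and 0.385% lower in ESCs, and 0.2% and 0.617% in PSA-NCAM+ cells. limma without a limit on size called 1 higher and 4 lower in ESCs (all exons 0.312% and 0.308%), 29 and 97 at the NPC stage (1.31% and 4.34%), 3 (0.0859%) and 134 (3.84%) in PSA-NCAM+ cells (1.64% and 2.71%), and 67 (1.86%) and 210 (5.83%) for neurons (3.77% and 2.52%). Without replicate 1 of both genotypes the PSA-NCAM+ counts were 5 (0.143%) and 66 (1.89%), against 1.67% and 2.66% of all exons. In NPCs 0 were higher and 2 (0.0587%) lower past 10 points, against 0.636% and 1.98% of all exons. One of these, the 146-base exon of Luc7l3, a partner of the U1 snRNP, was at 12.19, 14.76 and 14.97 in WT and 3.31, 4.42 and 3.79 in slow/slow NPCs.

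In neurons most of the called exons among those chosen in this way were lower in slow/slow cells. Of 3605 exons, 4 (0.111%) were higher and 100 (2.77%) lower past 10 points, where 1.51% and 1.25% of all exons were. The 4 higher exons were in Msi2, Bcat1, Slc4a7 and Arhgap21. The 206-base exon of Bcat1, a branched-chain aminotransferase, was at 6.67, 4.07 and 2.82 in WT neurons and 22.82, 28.64 and 26.79 in slow/slow neurons, a rise of 21.6 points (limma adjusted p = 1.06e-07). In the same test the Msi2 exon rose by 16.1 points (adjusted p = 6.26e-09). The Slc4a7 exon, in a bicarbonate transporter, was at 10.38, 8 and 12.54 in WT and 19.37, 25.23 and 22.11 in slow/slow neurons (adjusted p = 6.3e-05). The Arhgap21 exon was at 37.03, 36.26 and 39.32 in WT and 49.65, 44.97 and 53.3 in slow/slow neurons (adjusted p = 0.0308).

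The 100 lower exons were exons that WT neurons switched on. All 100 came from the 315 exons that passed 5 in a WT neuron sample, since an exon at or below 5 cannot fall by 10. Wdr7 held the largest difference, in a 96-base exon at 61.6, 63.64 and 60.79 in WT and 12.7, 9.09 and 13.51 in slow/slow neurons (limma adjusted p = 1.41e-12). The 54-base exon of Cltb, clathrin light chain B, was at 65.6, 57.79 and 59.45 in WT and 21.98, 20.33 and 23.94 in slow/slow neurons (adjusted p = 1.91e-10). A 27-base exon of Clasp2, a microtubule plus-end protein, was at 85.96, 83.73 and 81.4 in WT and 50.44, 46.86 and 50.5 in slow/slow neurons (adjusted p = 6.26e-09). Of the 100, 85 kept the reading frame (85%), against 208 (66.0%) of these 315, their median length was 54 bases against 73, and 22 were at most 27 bases long against 57 of the 315. The 100 had to stand above 10 in WT neurons and the 315 only above 5 in a sample. The sets thus differ in WT level by rule, and frame and length were not compared at equal WT level. Of the 4 higher exons, 3 kept the frame.

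Markers of mature neurons moved with genotype at this stage. Syn1, Snap25 and Rbfox3, 3 of 3 such markers tested, were lower in slow/slow neurons, and their summed level was 443 to 504 CPM over the WT samples and 140 to 141 CPM over the slow/slow samples, with none at 0. Syn1, a synaptic vesicle protein, fell from 221 to 60.3 CPM (log2 fold change -1.87). Of 6 markers of glia, endoderm and mesenchyme, 3 were higher and 3 lower. Their summed level was 74.3 to 96.4 CPM over the WT samples and 63.6 to 72.3 CPM over the slow/slow samples. Olig2, 1 of the 3 lower markers, was at 22.8 and 0.883 CPM. Pax6 and Nes, the NPC markers, were higher, with a summed level of 247 to 296 CPM over the WT samples and 415 to 470.2 CPM over the slow/slow samples. Of the 6 ESC markers, 4 were higher and 1 lower. Their summed level was 204 to 246 CPM over the WT samples and 240 to 265 CPM over the slow/slow samples. The part of these differences in the exons above was not tested.

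Length and frame did not set the rarely included exons far apart from other exons. Their median length was 106 bases against 115 for the 22655 other exons of the filter, 1250 of 3290 kept the frame against 9070 of 22655, and 51 were at most 27 bases long. Frame-preserving exons were higher without overlap in 2.96%, 6.08%, 1.44% and 7.92% of cases at the 4 stages in order, and frame-shifting exons in 2.79%, 6.47%, 2.06% and 6.91%. In neurons the mean PSI of the 1250 frame-preserving exons was 0.619 in WT and 0.648 in slow/slow cells, and that of the 2040 frame-shifting exons 0.680 and 0.704. Exons of at most 50 bases were higher in 6.59% and lower in 10.0% of cases in neurons, and those of 51 to 100 bases in 8.02% and 6.74%. The 4 exons called at 5 points in neurons were of 24, 17, 69 and 99 bases, and all but the Impdh1 exon kept the frame. The Slc25a30 exon, past 5 points but not called, shifted it.

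Annotation did set them apart. Of the 3290 exons, 794 (24.1%) matched an exon of the annotation, against 86.9% of the other exons. Of the matched exons, 177 (22.3%) were wholly coding in a protein-coding transcript, against 92.0% of the matched other exons. Another 246 (31.0%) lay in an NMD transcript and were not wholly coding in a protein-coding one, against 2.53%. These NMD exons could also lie in transcripts of other kinds. Of the 177 coding exons 73.4% kept the frame, against 30.5% of the 246 NMD exons. In neurons the mean PSI of the NMD exons was 0.743 ± 0.025 in WT and 0.876 ± 0.061 in slow/slow cells (SD, n = 3), with 29 (11.8%) higher and 16 (6.50%) lower without overlap, near the 12.2% and 6.07% of all exons. In NPCs it was 0.859 ± 0.015 and 0.697 ± 0.050, with 15 (6.10%) higher and 42 (17.1%) lower, against 5.3% and 12.4% of all exons. The Trp53bp1 exon was of this kind, in the gene of the DNA repair protein 53BP1. It was at 1.11, 0.89 and 1.3 in WT and 4.67, 3.14 and 4.88 in slow/slow neurons, and at 4.49, 1.77 and 3.31 in WT and 1.14, 0 and 1.4 in slow/slow NPCs. Its 141 bases keep the frame by length, but the sequence above ends in a stop after 14 coding bases.

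**Figure D5:**
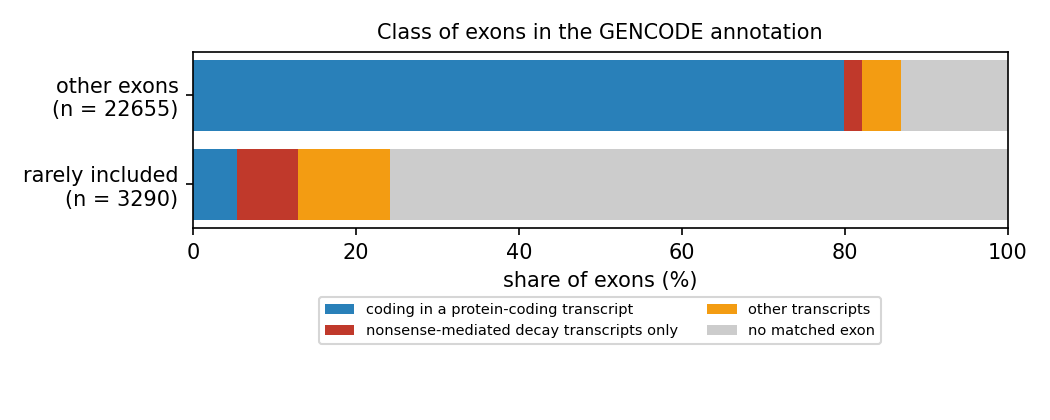
Share of exons (percent) by annotation class for the 3290 rarely included exons and the 22655 other exons of the coverage filter. Matched exons were 24.1% of the rarely included exons and 86.9% of the others. The class labelled nonsense-mediated decay holds exons in an NMD transcript that were not wholly coding in a protein-coding one. It made up 31.0% and 2.53% of the matched exons.

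Splicing factor genes held rarely included exons, most of which stayed rare. SR proteins, activators of splicing whose own genes hold poison exons, gave 7 exons in 5 genes, with a highest slow/slow PSI of 6.83 in Srrm2. The 104-base exon of Srsf2 was at 3.69, 3.91 and 2.94 in WT neurons and 1.11, 3.68 and 2.4 in slow/slow neurons, and the 65-base exon of Tra2b was at 4.58, 1.69 and 1.49 in WT and 3.88, 2.05 and 1.02 in slow/slow PSA-NCAM+ cells. Both pairs of groups overlapped. Exon repressors gave 7 exons in Ptbp1, Ptbp2 and Raly with a highest slow/slow value of 1.12, and neural splicing regulators gave 4 exons in Celf1, Khdrbs3 and Rbfox2 with a highest value of 1.34.

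Genes for splice-site recognition gave 14 exons in 10 genes, of which 7 were lower and 1 higher without overlap at the NPC stage (12.4% and 5.3% of all exons). In PSA-NCAM+ cells 5 were lower and 0 higher (6.95% and 2.99%), and in ESCs and neurons 1 was lower, with 1 and 2 higher. The 123-base exon of Snrnp70, which codes for the U1 70K protein, was at 1.31, 1.56 and 1.07 in WT and 0.6, 0.56 and 0.7 in slow/slow NPCs, and at 0.86, 0.56 and 0.86 in WT and 2, 1.85 and 2.2 in slow/slow neurons. The 66-base exon of Luc7l3 was at 3.35, 2.02 and 2.45 in WT and 5.34, 5.48 and 5.83 in slow/slow neurons. The 9 exons in genes for NMD factors reached 4.76, in the 115-base exon of Upf3a, at 2.11, 1.56 and 2.42 in WT and 3.78, 4.76 and 4.69 in slow/slow neurons. None of the exons in these lists passed the call of 10 or of 5 points between genotypes.

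The mRNA of these factors was compared in the gene counts. Of 15 SR protein genes, 9 rose at the ESC stage and 13 at each of the next 2 stages with none falling, and 6 rose and 1 fell in neurons (edgeR quasi-likelihood test, adjusted p under 0.05). The median log2 fold changes were 0.30, 0.61, 0.41 and 0.22, against medians of -0.02, 0.01, -0.01 and -0.06 over all genes tested. Of all genes tested, 18.5%, 29.3%, 28.6% and 23.4% rose at the 4 stages in order and 21.9%, 27.4%, 28.1% and 28.4% fell. Of 11 repressor genes 3, 9, 10 and 4 rose and none fell, so the ESC and neuronal counts were not far from the share of all genes. The 23 neural regulator genes held 24 rows of the table, since Qk has 2, of which 6, 12, 17 and 3 rose and 5, 2, 2 and 10 fell. Of 20 splice-site genes 4, 14, 12 and 2 rose and 1, 1, 1 and 2 fell. Of 14 NMD factor genes 7, 8, 9 and 2 rose and 0, 0, 0 and 1 fell.

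The host genes were changed at about the rate of all genes with a measured exon. Of 2365 host genes tested, 622 rose and 419 fell in ESCs (44.0%, against 43.6% of the 6464 genes with an exon in the coverage filter and 40.4% of all genes), 831 and 575 at the NPC stage (59.5%, 59.1% and 56.7%), 871 and 492 in PSA-NCAM+ cells (57.6%, 57.2% and 56.7%), and 500 and 720 for neurons (51.6%, 52.0% and 51.9%). Changes of at least 2-fold numbered 18 up and 42 down at the ESC stage, then 55 and 77, then 63 and 50, and 37 and 44 for neurons. Among the 6464 genes with an exon in the filter they numbered 60 and 148, 186 and 237, 216 and 162, and 149 and 148. Among all 16627 genes tested they numbered 576 and 1705, 1487 and 2082, 1454 and 2339, and 1823 and 1542. With upper-quartile scaling the neuronal split was 774 up and 450 down, as the median log2 fold change of all genes moved from -0.06 to 0.08. In PSA-NCAM+ cells a fit of that stage's 6 samples alone gave 425 changed host genes in place of 1363, and leaving out replicate 1 of both genotypes gave 1678.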

How the data were processed

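Poly(A) RNA-seq of 24 samples was analysed (4 stages, WT and slow/slow, 3 replicates each). The authors deposited raw gene counts, RPKM, log2 fold changes and p-values from edgeR, and a splicing table whose PSI values are percentages from vast-tools, made on mm9 per the labels. Whether strand was used in counting is not given in the sources used here. The deposited RPKM, log2 fold change and p-value columns of the authors' comparisons were not used, nor was the authors' table of selected splicing events.

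Exon events other than microexons with a coverage score of SOK, OK or LOW in all 24 samples were kept, and inclusion and exclusion reads were taken from the quality field of each PSI. The exons and gene lists were chosen with earlier results of these data known. A difference between groups was called where the mean PSI differed by over 10 points with a posterior probability over 0.95 from pooled beta posteriors of the replicates (the threshold of the study's methods, read as 0.95). limma 3.58.1 was fitted to the weighted log2 odds of inclusion with a prior of 0.5 reads, and edgeR 4.0.16 (TMM, quasi-likelihood test) to the counts, each across all features with Benjamini-Hochberg adjustment. Of 22667 genes listed, 1114 held no counts and 16627 passed the filter on low counts. The scripts were tested on simulated data. The median number of reads behind a PSI of these exons was 84 to 277 per sample. In PSA-NCAM+ cells same-numbered WT and slow/slow samples deviated together from their group means (correlations of 0.54, 0.455 and 0.401). Replicates 2 and 3 also did so across numbers (0.399 and 0.241). Replicate 1 of both genotypes thus stood apart alike, and whether numbers 2 and 3 paired the samples cannot be told.

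Exons named between WT and slow/slow cells were the called ones and the exons nearest the PSI limit. The others were chosen after their values were seen. GENCODE exons of GRCm38 were matched by structure, and no coordinates were converted. Alternatives covered the thresholds, the WT limit, coverage scores, scaling, filters, DESeq2 1.42.0, the replicate block and each replicate left out. A 5-point limit and PSA-NCAM+ cells without replicate 1 were added after seeing the data. The second exon lower in slow/slow NPCs among those chosen without the WT NPCs is not reported here.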

Additional observations from a re-analysis of the deposited data

Results flagged for a closer look

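The difference between slow/slow and WT cells was itself compared between stages, with limma's test of the interaction at an FDR under 0.05 and a gap of over 5 PSI points, and 8 such gaps were found at 6 rarely included exons. WT values took part in choosing these exons and are part of each difference. The gaps and their adjusted p-values are therefore given as descriptions only. For Pdgfa the slow/slow minus WT difference in neurons exceeded that in ESCs by 5.08 points, that in NPCs by 5.69 and that in PSA-NCAM+ cells by 7.22 (adjusted p = 0.0214, 0.022 and 0.000401). The Msi2 difference was larger in neurons than in PSA-NCAM+ cells by 15.53 points (adjusted p = 0.0328). The Trp53bp1 difference was larger in neurons than in NPCs by 5.47 points (adjusted p = 0.00085), with opposite signs of 3.13 and -2.34. The Zmiz2 exon, in a cofactor of nuclear receptors, gave 1.31 in neurons and -3.86 in NPCs, a gap of 5.17 (adjusted p = 0.00251). An exon of 70 bases in Gm2382 gave 1.79 in neurons and -3.32 in PSA-NCAM+ cells, a gap of 5.1 (adjusted p = 0.0486). For Galns the order was reversed, with -1.88 in neurons and 4.32 in PSA-NCAM+ cells, a gap of -6.2 (adjusted p = 0.0277).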

How the results depend on the processing

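Of 148 alternatives over 11 counts, 134 left the count within 1.5 times its value, 63 of them among the 66 that left out 1 replicate. A count that stayed at 0 was taken as within this range. Stricter thresholds or exon filters could not raise a count of 0, so those settings were no check on it. In neurons the count of newly included exons was 0 with a WT limit of 2 in place of 5, since the Msi2 exon then drops out, and 4 both at 5 points and with exons chosen without the WT neurons. Between slow/slow ESCs and NPCs the count was 3 at 5 points and 0 to 1 with a replicate left out. Between slow/slow NPCs and neurons it was 7 at 5 points, 1 at 15 points, and 1 to 2 with a replicate left out. Changed host genes with at least 2-fold numbered 60, 132, 113 and 81 in the order of the stages, and the fit of 6 PSA-NCAM+ samples gave 425. Under a replicate block the counts of newly included exons were the same (0, 0, 0 and 1 between genotypes). Those of exons changed between slow/slow stages were also the same (0, 0 and 2). Changed host genes under the block numbered 1237, 1546, 1533 and 1423. The limma counts of rarely included exons between genotypes without a limit on size moved under the block. In ESCs they went from 1 higher and 3 lower to 2 and 5. At the NPC stage they went from 29 and 60 to 30 and 77. In PSA-NCAM+ cells they went from 3 and 100 to 3 and 70, and in neurons from 56 and 43 to 55 and 44. Outside PSA-NCAM+ cells, same-numbered samples correlated from -0.084 to 0.068 and shared only a number. The study's own score for junction balance was passed by 151 to 205 of the 3290 exons per stage and was not required here. At low PSI, differences of under about 1 point rest on few inclusion reads.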
